A study of Homo sapiens with 15 samples.

Results

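New and old messenger RNA were compared within the Early_S gate of U2OS cells, a human osteosarcoma line, and genes were ranked by how much of their RNA was new. The Early_S group is 3 of the 15 libraries of the series, and 3 No_alkylation libraries give the background. Of 19531 gene names in the files, 9117 had at least 100 reads in each Early_S library, and these held 98.6% of its reads. A further 175 of the 9117 were left out of the ranking because over 5% of their reads carried conversions without alkylation, which left 8942 ranked genes. The highest 5% of them by labelled share, 447 genes, are called fast here, and the lowest 447 are called slow.

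Per the labels, the cells grew for 45 minutes with EdU, which marks replicating DNA, and with 4-thiouridine, a modified uridine that enters newly made RNA. They were fixed with glyoxal and methanol, and sorted by EdU and DNA content into the gates G1, Early_S, Late_S and G2, with 3 libraries each. RNA was alkylated, and 500 ng of it went into each 3′ end library. The title of the series speaks of synchronised cells, but by the protocol the culture grew asynchronously and was only sorted. The No_alkylation libraries are labelled as U2OS and as lacking the alkylation step. The labels do not say which gate their cells came from or whether these cells received 4-thiouridine. They also do not say whether the 3 libraries of a gate came from separate cultures, so the p-values below measure the spread between these libraries, which may be technical. Equal RNA went into each library, so fewer cells and less RNA per cell cannot be told apart.

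Reverse transcription turns alkylated 4-thiouridine into C where T would stand. A read with such a conversion (a T>C read) is counted here as RNA made during the pulse, though some T>C reads arise without alkylation. The other reads come mostly from RNA that was there before the pulse. The labelled share of a gene, which is T>C reads as a percentage of all its reads, is high where a message is replaced quickly or has only just been switched on, and low where it is long-lived. Messages of signalling genes and many transcription regulators are known to decay quickly, through AU-rich elements among other features, whereas those of metabolic enzymes and ribosomal proteins are known to be long-lived. New RNA can be missed where a read covers few T positions or where the pulse was short against the time to make and process a transcript, so a labelled share is not a half-life.

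Labelling was well above background in all 3 libraries. Early_S libraries 1, 2 and 3 held 20571801, 18225677 and 16096695 reads, of which 18.9%, 17.9% and 18.5% were T>C reads. In the No_alkylation libraries, with 17480980 to 17618997 reads, the shares were 1.00%, 1.00% and 1.03%. The groups did not overlap, and the difference of 17.4 percentage points had p = 0.1 (exact permutation test, two-sided), the smallest p that 20 assignments of 3 against 3 allow. In a gene by gene test with the No_alkylation libraries as background, 10785 of 12125 genes (88.9%) lay above it and 1, PDE6A, below it (edgeR, quasi-likelihood, adjusted p under 0.05). Multimapped reads, which align to more than 1 place, were 10.9% to 12.1% of reads in these 6 libraries. Of 9 mesenchymal and bone markers, 7 were above 1 CPM (read counts scaled to a common depth), with a summed level of 7391 to 7553 CPM per Early_S library, while COL1A2 and TWIST1 were at 0. Of 5 blood markers none was above 1 CPM, with a summed level of 0 to 0.146 CPM, and CD3E and HBB were among those at 0. Summed epithelial markers stood at 11.03 to 18.7 CPM and summed neural markers at 44.7 to 54.5 CPM, nearly all of the latter from RBFOX3.

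Labelled shares covered almost the whole possible range. The median gene had a share of 19.5%, the quartiles were 10.7% and 36.3%, and 110 genes were above 90% while 62 were below 2%. Over 50% new RNA was seen for 1315 genes. The limits of the tails fell in a continuous distribution. ZNF605, the lowest fast gene, had 75.8% and ARHGAP29, just outside, 75.7%, and UNC13D, the highest slow gene, and RPL37A, just outside, both had 4.94%. The median gene's SD between the 3 libraries was 3.90 percentage points, against 1.41 points from counting alone, and 92.7% of genes had an SD above their counting error. The fast tail was the steadier one: ranked in a single library, the same-sized top tail held 384 to 393 of the 447 fast genes, and the low tail held 219 to 281 of the slow genes. The median SD was 4.55 points among fast genes and 1.96 points among slow genes, whose median share was 3.81%.

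**Figure D1:**
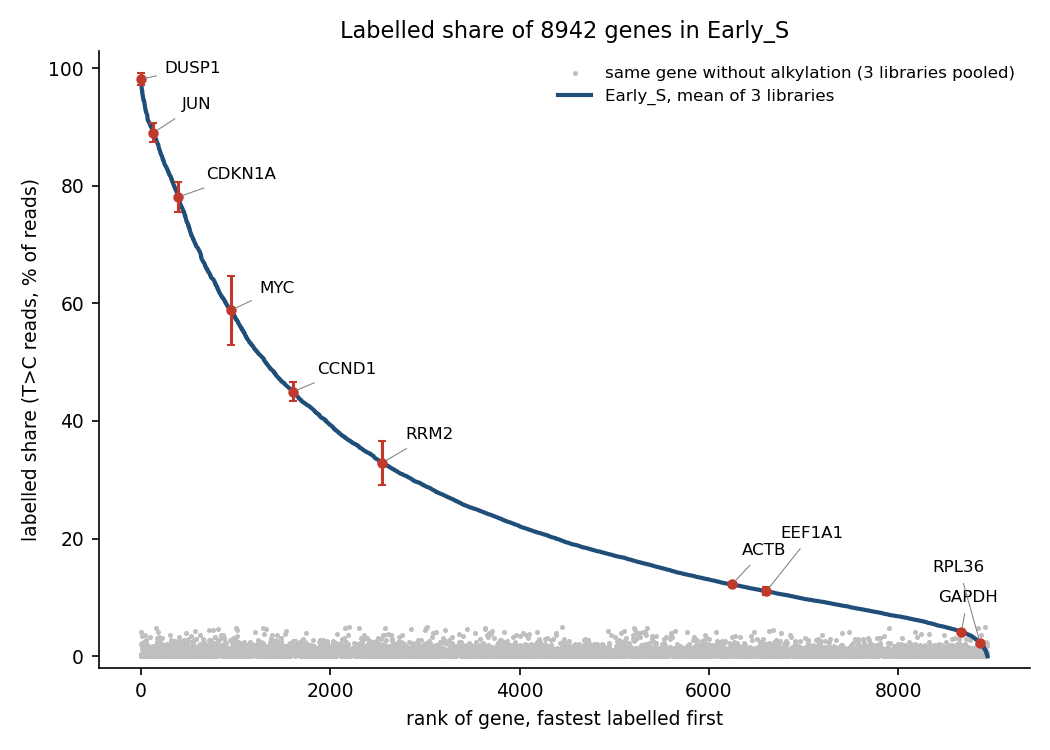
Labelled share (vertical axis, T>C reads as % of all reads of a gene) of the 8942 ranked genes against rank (horizontal axis). The blue line is the mean of 3 Early_S libraries, grey points are the same genes in the pooled No_alkylation libraries, and red points with bars are named genes with their SD (n = 3). The curve falls from 98.2% (DUSP1) to 0, and its median is 19.5%, while grey points stay at or below 5% by the choice of genes.

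The messages with the most new RNA included those of genes of signalling, cell death, mitotic control and splicing control. DUSP1, a phosphatase that switches off MAP kinases (hg38, chr5:172768090-172768761), led the ranking. Its T>C reads were 838 of 848, 652 of 660 and 613 of 632 in Early_S libraries 1, 2 and 3, or 98.8%, 98.8% and 97.0% (mean 98.2% ± 1.05, SD, n = 3), against 0.0963% in the pooled No_alkylation libraries. All 3 libraries were thus within 2 points of each other. FBXO5, an inhibitor of the anaphase-promoting complex, had 97.2%, 97.5% and 97.1%. TOPORS, a ubiquitin and SUMO ligase, had 97.4%, 97.0% and 96.7%. BBC3, the p53 target PUMA that promotes apoptosis, had 94.5%, 100% and 95.9% on 107 to 201 reads. CLK1, a kinase of splicing factors, stood at 96.2% ± 2.16, and TOB1, an antiproliferative protein that recruits deadenylases, at 96.4% ± 3.33. ERCC6L, a mitotic helicase, had 96.0% ± 2.82. Other members of the highest 15, RNF19A, DNAAF2, KTI12, NANP, C1orf109 and ZBTB6, ranged from 96.0% to 98.0%, mostly on fewer reads than DUSP1.

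The slow end included metabolic and membrane trafficking genes. FGGY, a carbohydrate kinase, had 0 T>C reads of 122, 122 and 142 reads, which allows shares of up to 2.46%, 2.46% and 2.11%. TRAPPC6A, a vesicle tethering subunit, had 0 of 286, 235 and 106 reads, which allows up to 1.05%, 1.28% and 2.83%. GXYLT2, a xylosyltransferase, had 4, 1 and 1 T>C reads of 639, 584 and 264, and NUP210, a nuclear pore protein, had 2, 4 and 0 of 395, 502 and 343. DECR1, an enzyme of fatty acid oxidation, had 0.861% ± 0.269. IMPA2, FGD5, KDM1B, EPHX2, IFT122, SH3GL3, CGREF1, WSCD1, ADAM23 and LHPP, the rest of the lowest 15, ranged from 0.111% to 0.736%. Many of these values lie near background. Of the slow genes, 420 had enough T>C reads to be tested against the No_alkylation libraries, and 296 of these were above background. The order within the slow tail therefore has little meaning at this depth.

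Early_S reads were next split into T>C and other reads, and each gene's ratio of new to old was set against that of the bulk of genes (edgeR, library as a term, TMM scaling). A log2 ratio of 0 in this fit corresponds to a labelled share of about 21.0%, 1 to about 34.6% and -1 to about 11.8%. At an adjusted p under 0.05 and a log2 ratio of at least 1 either way, 2385 of 9117 genes (26.2%) were enriched in new RNA and 2340 (25.7%) in old RNA. These shares are the background for the counts in gene groups, since the ranking and the ratio rest on the same reads. The groups overlap in a few genes, and a group's counts describe it without testing it against other genes. The lists were drawn up with earlier results of these data known. Some members match a group's name only loosely, such as IER3 among transcription factors and SGK1 among inhibitors of signalling.

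Immediate early transcription factors and inhibitors of signalling were enriched in new RNA almost without exception. All 25 measured immediate early factors were called new, with a median share of 71.3%, and 12 of them were fast. JUN, a subunit of AP-1, had shares of 87.2%, 89.9% and 90.1% (log2 ratio 4.96 ± 0.16, SE, edgeR adjusted p = 9.65e-13), against 1.19% in No_alkylation. KLF10, a factor induced by TGF-beta, stood at 92.7% ± 2.38, and IER3, a stress-inducible survival protein, at 90.1% ± 1.45. The lowest, SRF at 40.7% ± 6.20, is the factor that drives many of the others. MYC, a growth-promoting factor, had 65.5%, 54.3% and 56.6%, so the libraries spread over 11 points (log2 ratio 2.46 ± 0.23, edgeR adjusted p = 2.11e-07). IER2 had 79.5% ± 1.02, but 56.7% of the reads were multimapped. Among 29 signalling feedback inhibitors 27 were called new and 0 old (median share 75.3%, 14 fast). They include SGK1, a kinase (94.7% ± 3.77), and ID3, an inhibitor of helix-loop-helix factors (91.8% ± 0.509). TNFAIP3 (31.0% ± 10.1) and SOCS6 (33.6% ± 12.7) were the members not called, both with a wide spread between libraries.

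Secreted growth factors, p53 targets and zinc finger genes leaned the same way but less uniformly. Of 21 growth factors and cytokines, 16 were new and 0 old (median 49.8%). CTGF, a matrix-associated growth regulator, had 94.1% ± 0.846 and HBEGF, an EGF receptor ligand, 88.3% ± 1.07, whereas TGFB1 had 12.3% ± 3.50. Of 24 p53 targets, 16 were new and 1, FDXR, a mitochondrial reductase with 8.16% ± 1.95, was old (median 53.5%). CDKN1A (p21), which blocks cyclin-dependent kinases, had 78.8%, 75.3% and 80.2% on 6647 to 8981 reads (log2 ratio 3.78 ± 0.10, edgeR adjusted p = 5.41e-14). PLK2, a stress-responsive kinase, had 90.4% ± 0.465, and BAX, the pore-forming apoptosis effector, 14.9% ± 1.63. MDM2, the ubiquitin ligase of p53, had 42.4% ± 4.70. Of 172 ZNF genes, 88 were new and 7 old (median 37.98%). ZNF genes were 8.05% of fast genes, 1.91% of ranked genes and 0.224% of slow genes.

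Genes of RNA decay and RNA processing were mixed. Of 66 genes of the decay machinery, 28 were new and 6 old (median 29.7%). ZFP36L1, which binds AU-rich elements and brings in deadenylases, was among the most precisely measured fast genes: its libraries had 90.5%, 89.8% and 89.6% on 10832 to 14598 reads (log2 ratio 5.10 ± 0.08, edgeR adjusted p = 4.93e-16). Its paralogue ZFP36L2 had 93.9% ± 1.15, and BTG1, an antiproliferative partner of deadenylases, 87.2% ± 0.905. At the other end were SMG5 of nonsense-mediated decay (5.05% ± 2.26), the exosome subunit EXOSC5 (7.15% ± 5.11) and the exonuclease DIS3L (7.53% ± 3.43). Of 40 SR proteins, their kinases and hnRNPs, 12 were new and 9 old (median 22.3%). CLK2 (87.6% ± 6.73) and SRSF4 (74.9% ± 8.01) were high, and HNRNPD (7.67% ± 1.02) and HNRNPK (7.78% ± 0.665) were low.

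Cell cycle genes had both high and low labelled shares, and their groups were not tested against each other. Among 30 E2F targets that act in G1/S, 12 were new and 2 old (median 26.6%). CCNE1, a cyclin of the G1/S transition, had 54.1%, 50.8% and 46.7% (log2 ratio 1.97 ± 0.14, edgeR adjusted p = 6.42e-09). CDC25A, the phosphatase that activates CDK2, had 86.3% ± 4.36, E2F7, a repressor of E2F targets, 86.8% ± 9.04, and SLBP, which binds the stem-loop of histone messages, 82.8% ± 4.92. MCM5 of the replicative helicase had 7.97% ± 1.22 and E2F1 itself 8.24% ± 1.90. Genes of the replication fork and nucleotide supply lay lower: of 34, 6 were new and 13 old (median 12.9%). RFC4 of the clamp loader was highest at 55.0% ± 4.47, and POLD2, a subunit of DNA polymerase delta, lowest at 3.80% ± 0.948. PCNA, the clamp itself, had 37.4%, 35.1% and 37.2% (log2 ratio 1.15 ± 0.15, edgeR adjusted p = 5.81e-06). RRM2, of ribonucleotide reductase, had 32.9% ± 3.74 and did not reach a log2 ratio of 1 (0.91 ± 0.09). CCND1, the G1 cyclin, had 45.0% ± 1.69.

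Mitotic and histone messages of early S also held much new RNA. Of 42 G2/M regulators and spindle genes, 23 were new and 1, the transcription factor MYBL2 with 3.24% ± 0.264, was old (median 37.8%). CKS2, a subunit of cyclin-dependent kinases, had 77.0% ± 3.53. AURKA, a centrosomal kinase, had 69.5% ± 0.400, and CDCA8, a subunit of the chromosomal passenger complex, 69.0% ± 3.39. PTTG1, the securin, had 17.9% ± 0.762. Of 18 measured histone genes, 10 were new and 3 old (median 37.7%). HIST1H3D (80.8% ± 6.79) and HIST1H4C (57.3% ± 1.31) encode replication-dependent histones, and the 3 called old, H2AFY2 (4.91% ± 0.591), H2AFY (6.71% ± 2.23) and H2AFV (7.78% ± 0.942), encode variants made outside replication. The calls did not follow this division throughout: H1F0, a linker histone made outside replication, was called new with 59.3% ± 4.85, and the replication-dependent HIST1H2AG was not, with 14.2% ± 5.43. Most replication-dependent histone messages lack poly(A) tails, so 3′ end libraries may hold only part of them. How the counted histone reads arose was not tested.

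**Figure D2:**
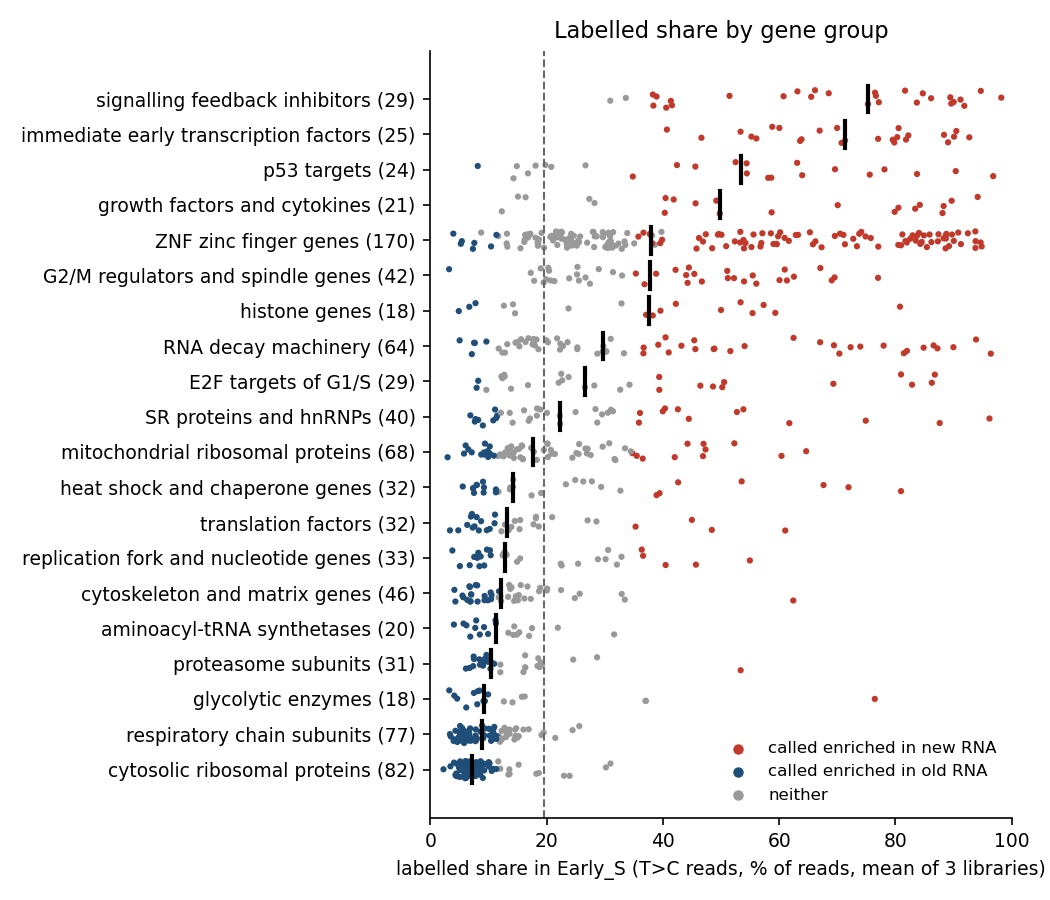
Labelled share in Early_S (horizontal axis, % of reads, mean of 3 libraries) of ranked genes in 20 gene groups (rows, with the number of ranked genes), ordered by median. Each point is a gene, coloured by its call (red new, blue old, grey neither), black bars are group medians and the dashed line is the median of all ranked genes, 19.5%; medians run from 7.20% for cytosolic ribosomal proteins to 75.3% for signalling feedback inhibitors.

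Ribosomal proteins and the machinery of energy supply and protein turnover formed the old side. Of 85 cytosolic ribosomal protein genes, taken by the pattern of their names, 0 were called new and 70 old, with a median share of 7.20%. The highest were RPL7L1 (31.0%), RPL36AL (30.2%) and RPL10L (24.0%), none of which was called new or old. The lowest, RPL36, had 2.24%, 2.13% and 2.44%, against 0.376%, 0.164% and 0.282% in the No_alkylation libraries. Reads of this family are shared among near-identical copies: 49 of the 85 had over 10% multimapped reads, and of the 36 others 28 were called old (median 7.91%). Of 78 respiratory chain subunits 0 were new and 52 old (median 8.91%), with NDUFV1 of complex I at 3.38% ± 1.63. Of 18 glycolytic genes 11 were old and 1 new (median 9.27%). GAPDH, a glycolytic dehydrogenase, had 4.12%, 4.27% and 3.99% on 139551 to 194437 reads (log2 ratio -2.60 ± 0.05, edgeR adjusted p = 5.46e-15). The exception was the glucose transporter SLC2A1, with 76.4% ± 1.77.

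Other housekeeping groups followed with fewer calls. Of 32 proteasome subunits 17 were old and 1, PSMD12 with 53.4% ± 1.22, was new (median 10.4%). Of 20 aminoacyl-tRNA synthetases 11 were old and 0 new (median 11.2%), and of 32 translation factors 14 were old and 4 new (median 13.2%). EEF1D, an exchange factor of elongation, had 3.39% ± 0.293 while EIF4A2, a helicase of initiation, had 61.0% ± 2.33. EEF1A1, the main elongation factor, had 11.05% ± 0.716, but 99.3% of the reads were multimapped. Of 47 cytoskeleton and matrix genes, 21 were old and 1, THBS1 (62.4% ± 2.35), which encodes the matrix protein thrombospondin, was new (median 12.1%). ACTB, cytoplasmic actin, had 12.2%, 11.9% and 12.4% and did not reach a log2 ratio of -1 (-0.91 ± 0.05), and 79.1% of the reads were multimapped. Of 32 heat shock and chaperone genes, 7 were new and 11 old (median 14.2%). Without members that had over 10% multimapped reads, 5 of 24 heat shock and chaperone genes were new and 10 old. For translation factors these were 2 and 9 of 19. The inducible members DNAJB1 (81.0% ± 2.05) and HSPA1A (67.6% ± 2.83) were high, while the chaperonin subunit CCT7 (5.58% ± 0.661) and the disulfide isomerase PDIA3 (7.36% ± 1.54) were low. Mitochondrial ribosomal proteins did not lean clearly to a side, with 12 new, 15 old and 44 neither of 71 (median 17.6%). The 28 listed noncoding snoRNA host and nuclear RNA genes were not analysed here.

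Some promoter features that the ranking did not use differed between these groups. Start sites were taken from RefSeq (GRCh38.p14), with the first listed start of each gene, and 7210 of 8942 ranked genes (80.6%) matched. A pyrimidine start, here a C at the start followed by 5 pyrimidines, resembles the 5′ terminal oligopyrimidine motif through which growth signals control translation of ribosomal protein messages. It was present in 354 of the 7210 (4.91%), and in 42 of 66 matched ribosomal protein genes (63.6%). Genes with it had a median labelled share of 14.9%, against 19.8% without it. Leaving out ribosomal proteins, the median was 18.2%. The starts of the 6 ribosomal protein genes with the lowest shares among those with the motif are shown from 5 bases before the start to the 20th base of the transcript on the gene's strand, with the pyrimidine run in capitals, and their labelled shares lay between 2.27% and 4.45%.
RPL36, chr19:5690290-5690314, plus strand: ccagcCCTTCCgccacggccgtctc
RPS10, chr6:34426050-34426074, minus strand: tccttCCTTTCCagccccggtaccg
RPS3, chr11:75399513-75399537, plus strand: cacttCCTTTCCTTTCagcggagcg
RPS12, chr6:132814564-132814588, plus strand: gaggcCTCTTTCCCTgccgccgccg
RPLP1, chr15:69452813-69452837, plus strand: gagagCCCCTTTCCTCagctgccgc
RPS14, chr5:150449720-150449744, minus strand: ccactCTCTCTTTCCggtgtggagt

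The TATA box, bound by the TATA-binding protein, is typical of inducible promoters, and its letters went with high labelled shares. TATAAA was searched on the gene's strand from 40 to 21 bases before the start, a window apart from the pyrimidine start. It was present in 107 of 7210 genes (1.48%), whose median labelled share was 34.0% against 19.4% for the others. Of the 107, 51 (47.7%) were called new and 16 (14.95%) old, against 25.6% and 26.1% of genes without it. The medians are descriptions, and genes with TATAAA also had a higher median level, 58.8 against 37.5 CPM. Only 79.9% of fast genes matched a start, under the 80% set as the least for comparing a set, so a comparison of its share among fast genes is void. Of the 11 fast genes with the letters, 10 are shown from 40 to 11 bases before the start, with TATAAA in capitals, in order of labelled share from 98.2% (DUSP1) to 76.4% (SLC2A1).
DUSP1, chr5:172771206-172771235, minus strand: agaggccgcaTATAAAcgcgctccccgggc
CTGF, chr6:131951383-131951412, minus strand: ccggagcgTATAAAagcctcgggccgcccg
FAM46A, chr6:81752692-81752721, minus strand: agaagcccggTATAAAaaaagtactgaaga
PPP1R10, chr6:30617254-30617283, minus strand: cgtccgggTATAAAagactccacccgagcg
BTG1, chr12:92145857-92145886, minus strand: gtggcacTATAAAgggtgctgcacggcgct
KRTAP2-3, chr17:41060125-41060154, minus strand: ccagctaggataTATAAAgggcccagagtg
ID1, chr20:31605249-31605278, plus strand: tggcgtgttTATAAAagacaagctgtggct
ESM1, chr5:54985604-54985633, minus strand: acccagtgTATAAAactcataaacgtgtag
GCLC, chr6:53545112-53545141, minus strand: cgcccgtagtcTATAAAacctggagcgcag
SLC2A1, chr1:42958879-42958908, minus strand: ccggggtccTATAAAcgctacggtccgcgc
The set joins signalling regulators (DUSP1, BTG1, ID1), secreted proteins (CTGF, ESM1) and GCLC, the catalytic subunit of glutathione synthesis.

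**Figure D3:**
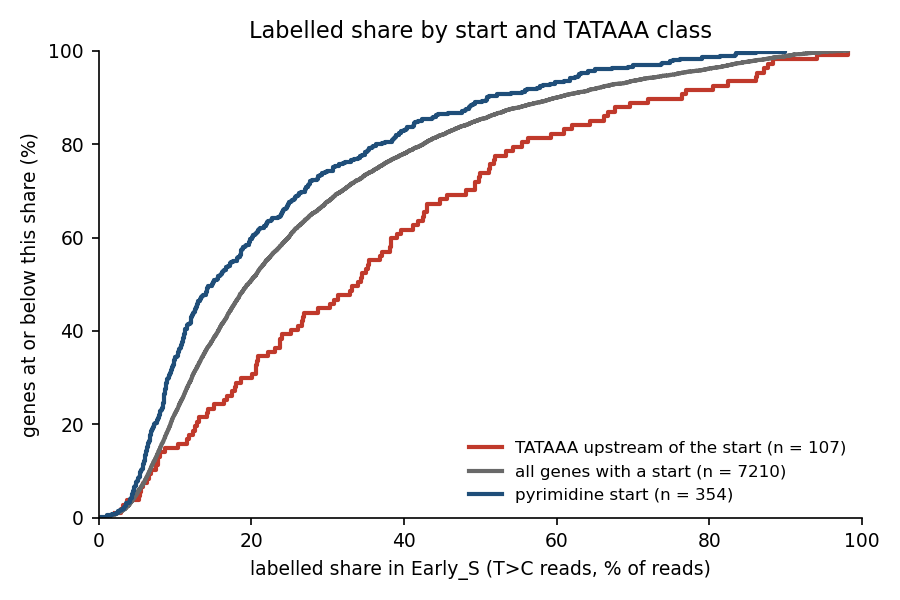
Percentage of genes (vertical axis) at or below a given labelled share in Early_S (horizontal axis, % of reads) for 107 genes with TATAAA upstream of the start (red), all 7210 genes with a start (grey) and 354 with a pyrimidine start (blue). The red curve lies to the right of the grey, with medians of 34.0% against 19.4% for genes without TATAAA, and the blue to its left, with a median of 14.9%.

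Fast and slow genes also differed in sequence content of the counted regions, and both had lower levels than ranked genes as a whole. Fast genes had a median level of 22.1 CPM and slow genes 24.4 CPM, both below the 37.7 CPM of all ranked genes. Their mean reads per library had medians of 402 and 446, against 690 in all. Shares from fewer reads carry more counting error, and the part of this in the tails was not tested. Reads of fast genes covered more T positions, with a median of 21.0 per read against 16.4 in slow genes and 19.1 in all, and T made up 32.2%, 26.3% and 29.4% of their regions. More T positions give a new read more chances to show a conversion, and their part in the ranking was not tested. Ranked by conversion rate (converted over covered T positions), the same-sized tails held 374 of the 447 fast and 343 of the 447 slow genes. This rate divides by the covered T positions, but its conversions were not counted under the same filter as T>C reads. The gene span in RefSeq had a median of 22.5 kb in fast genes, 33.9 kb in slow genes and 30.04 kb in all ranked genes, and 12.2%, 22.7% and 16.8% were longer than 100 kb. Across ranked genes the labelled share had a Spearman rho of -0.18 with level, 0.19 with covered T positions and -0.03 with span. These are descriptions over genes measured in the same libraries.

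The ranking could be read in gates that were not used to make it. In G1, 430 fast genes had at least 100 reads per library, and 349 of them were in the top 5% of that gate (81.2% of the fast genes, 82.1% of that tail). In Late_S it was 314 of 408 (77.0% and 72.4%), and in G2 305 of 400 (76.3% and 71.3%). All of these fast genes lay above each gate's median. Slow genes were less steady: 175 of 379 (46.2%) were in the low tail of G1, 185 of 418 (44.3%) in that of Late_S and 158 of 405 (39.0%) in that of G2, though 375, 413 and 399 of them lay below the gate's median. Fast genes had a median share of 80.1% in G1, 59.0% in Late_S and 56.7% in G2, against 25.7%, 9.47% and 9.28% for all genes measured there, and slow genes 7.79%, 2.77% and 2.83%. T>C reads were 21.5% to 22.8% of reads in G1 libraries, 9.95% to 10.1% in Late_S and 9.77% to 10.4% in G2. G1 held fewer converted T positions per T>C read, 2.06 to 2.08, against 2.32 to 2.34 in Early_S. In Late_S there were 2.37 to 2.39, and in G2 2.31 to 2.36. The mean conversion rate was 2.52% in G1 and 2.35% in Early_S, closer than their mean T>C shares of 22.3% and 18.4%. What this does to the comparison with G1 below was not tested.

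**Figure D4:**
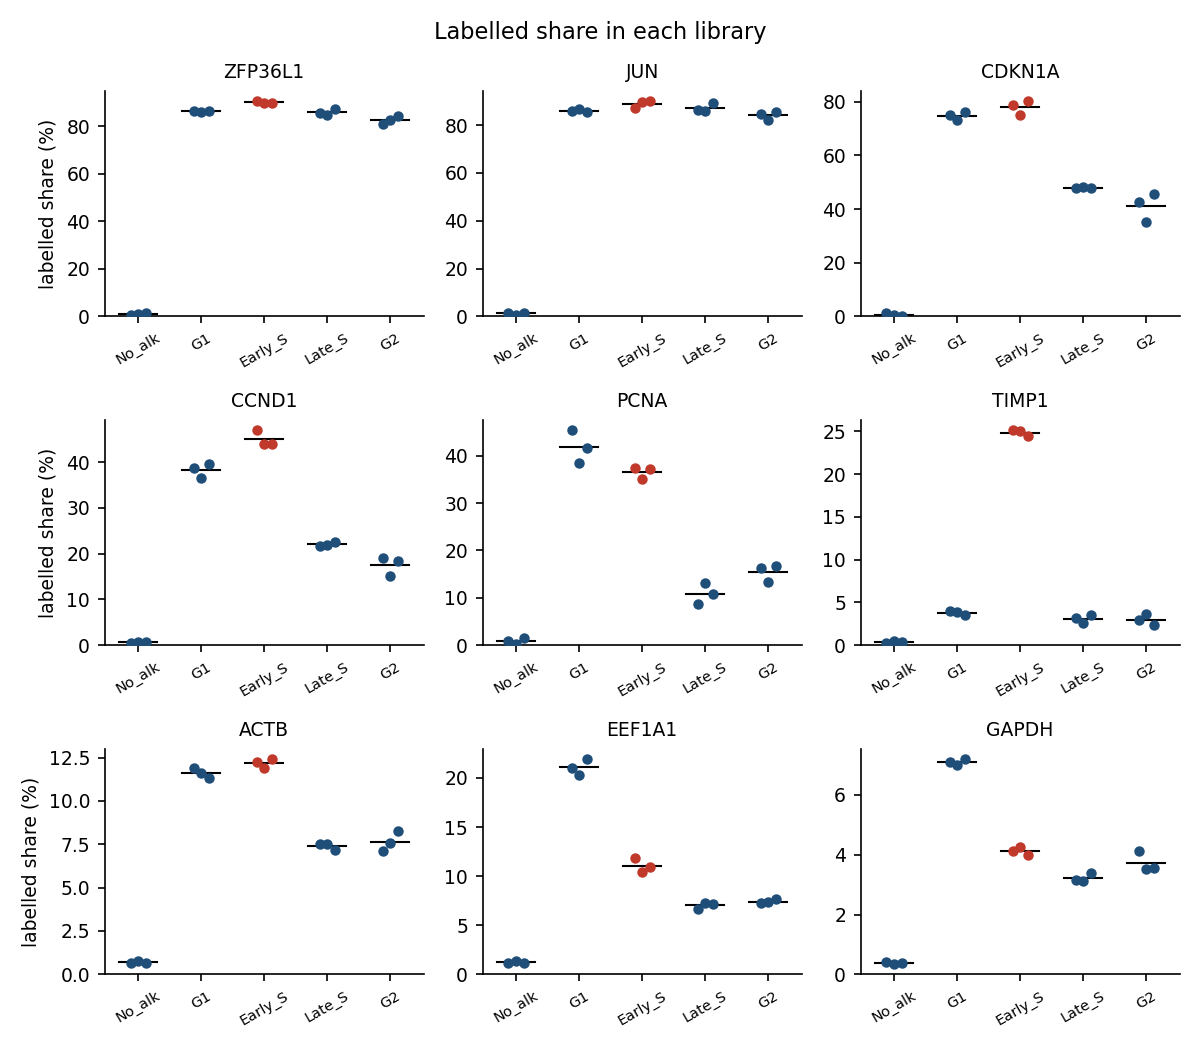
Labelled share (vertical axes, % of reads, each from 0) of 9 named genes in every library of the 5 groups. Points are libraries (Early_S red, others blue) and bars are means of 3 libraries. JUN and ZFP36L1 stay above 80% in all 4 gates, TIMP1 is near 25% in Early_S alone, and all 9 genes are near 0 in No_alkylation.

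Early_S was then set against its neighbouring gates, asking whether the ratio of new to old differed by more than the bulk of genes (edgeR over the 12 alkylated libraries, TMM within each kind of read). Both comparisons use the same Early_S libraries as the ranking. Genes entered with at least 100 reads in each Early_S library and enough T>C reads over the 12 alkylated libraries (edgeR, filterByExpr). No floor of reads was set for G1 or Late_S, so a gene could enter on its Early_S reads alone. What this does to the counts of higher and lower genes was not tested. Of 9024 genes, 516 (5.72%) had a higher labelled share in Early_S than in G1 and 143 (1.58%) a lower one, and against Late_S 671 (7.44%) were higher and 292 (3.24%) lower. The split depends on scaling. With all reads of a library as the scale for both kinds, which keeps the overall difference in labelling, 161 were higher and 627 lower than in G1 (the median gene moved from 0.02 to -0.37 log2), and 5043 were higher and 0 lower than in Late_S (median from 0.07 to 1.24). With totals of each kind and no TMM, 472 were higher and 168 lower than in G1, and 980 higher and 201 lower than in Late_S. Directions below are relative to the bulk of genes unless stated. Leaving out G1 replicate 1 or G1 replicate 3 lowered the count against G1 from 659 to 427 and 426.

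Relative to the bulk, more mitotic and matrix genes had a higher labelled share in Early_S than in G1 than had a lower one, and for matrix genes this balance went when scaled by all reads. Among all genes tested, 5.72% were higher and 1.58% lower, so calls leaned the same way without regard to group. Of 42 G2/M and spindle genes, 14 were higher in Early_S and 2 lower (median log2 0.48, 0.09 when scaled by all reads). KIF20A, a kinesin of cytokinesis, had 51.4%, 43.0% and 41.8% in Early_S against 9.53%, 6.32% and 7.13% in G1 (log2 3.73 ± 0.34, SE, edgeR adjusted p = 8.08e-08). The groups were far apart. PTTG1 had 17.9% ± 0.762 against 5.05% ± 0.489 (log2 2.43, edgeR adjusted p = 5.76e-10). SAPCD2, a regulator of spindle orientation, had 50.1%, 32.4% and 45.8% against 6.54%, 4.87% and 17.2%. Of 47 cytoskeleton and matrix genes, 18 were higher and 3 lower (median 0.42, 0.03 when scaled by all reads, where the counts were 11 and 10). TIMP1, an inhibitor of matrix metalloproteinases (chrX:47586692-47586789), had 25.1%, 24.97% and 24.5% in Early_S on 11179 to 13100 reads, against 3.95%, 3.91% and 3.54% in G1 (log2 3.46 ± 0.17, edgeR adjusted p = 1.66e-12). Its share was also low in Late_S (3.19%, 2.63% and 3.53%) and in G2 (2.36% to 3.62%), so Early_S stood apart from every other gate. CD82, a tetraspanin, had 33.8%, 26.8% and 29.8% against 3.78%, 2.88% and 5.52% in G1 on fewer reads, and MPO, an enzyme of neutrophil granules, 74.2% ± 2.53 against 7.23% ± 11.8 on 147 to 223 Early_S reads. HIST1H3D had 80.8% ± 6.79 against 58.4% ± 5.53 (log2 2.01, edgeR adjusted p = 0.00559, but 1.63 with adjusted p = 0.0724 when scaled by all reads), and 6 of 18 histone genes were higher and 0 lower (median 0.34, but -0.05 when scaled by all reads, where 1 was higher and 3 lower).

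Genes lower in Early_S than in G1 included some replication genes. Of 34 replication fork and nucleotide genes, 0 were higher and 4 lower (median -0.58, -0.97 when scaled by all reads). E2F1 had 8.24% ± 1.90 against 29.2% ± 3.41 (log2 -1.82, edgeR adjusted p = 0.00327). CYB5A, an electron carrier of the endoplasmic reticulum, had 5.57%, 1.62% and 5.37% against 26.7%, 26.8% and 32.8% in G1 (log2 -2.96 ± 0.36, edgeR adjusted p = 6.05e-06). UCP2, a carrier of the inner mitochondrial membrane, had 2.56%, 2.40% and 1.91% against 18.1%, 10.9% and 18.6%. CGREF1, a secreted growth regulator, had 0.435%, 0 and 0.806% against 39.0%, 18.5% and 30.1%, on 124 to 230 Early_S reads. EEF1A1 had 11.05% ± 0.716 against 21.1% ± 0.823 (log2 -0.71, edgeR adjusted p = 6.41e-09) and GAPDH 4.13% ± 0.140 against 7.10% ± 0.111 (log2 -0.44, edgeR adjusted p = 0.000374). PCNA (41.8% ± 3.48 in G1) and CCNE1 (60.4% ± 3.67 in G1) were not called.

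The fast genes JUN, ZFP36L1 and CDKN1A were called higher than in G1 relative to the bulk, by 0.80, 0.91 and 0.66 log2 (edgeR adjusted p = 0.00407, 1.12e-06 and 0.00132). Their shares differed by under 4 points, from 85.9% ± 0.571, 86.3% ± 0.277 and 74.8% ± 1.63 in G1. CCND1, with 38.3% ± 1.61 in G1, was higher by 0.79 (edgeR adjusted p = 0.000178). Scaled by all reads, ZFP36L1 kept its call and JUN, CDKN1A and CCND1 did not, with log2 values of 0.42, 0.27 and 0.40 (edgeR adjusted p = 0.251, 0.351 and 0.0887).

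Against Late_S, more genes of cell cycle control had a higher than a lower labelled share in Early_S relative to the bulk, and ribosomal proteins lay below the bulk, though not below Late_S itself when scaled by all reads. Of 30 E2F targets 5 were higher and 0 lower (median log2 0.25). Of 42 G2/M and spindle genes 13 were higher and 1 lower (median 0.20). Among all genes tested, 7.44% were higher and 3.24% lower, so calls leaned the same way without regard to group. Scaled by all reads, 5043 of all genes were higher and 0 lower. CCNE1 had 50.5% ± 3.74 against 15.6%, 15.01% and 15.3% in Late_S (log2 1.33 ± 0.19, edgeR adjusted p = 3.06e-05), and PCNA 36.6% ± 1.26 against 8.70%, 13.1% and 10.8% (log2 1.09 ± 0.20, edgeR adjusted p = 0.000774). Neither pair of groups overlapped. SLBP had 82.8% ± 4.92 against 34.3% ± 6.43 (log2 2.08, edgeR adjusted p = 0.000293), and AURKA 69.5% ± 0.400 against 23.7% ± 2.21 (log2 1.71, edgeR adjusted p = 0.000132). TNFRSF10B, a death receptor and p53 target, had 83.7% ± 8.74 against 25.7% ± 4.01 (log2 2.84, edgeR adjusted p = 0.000102). H1F0 had 59.3% ± 4.85 against 21.7% ± 1.12 (log2 1.23, edgeR adjusted p = 1.61e-06). IPPK, an inositol phosphate kinase, had 93.4%, 83.3% and 89.6% against 9.50%, 27.5% and 23.1% (log2 3.98 ± 0.74, edgeR adjusted p = 0.000763). S1PR3, a receptor for sphingosine 1-phosphate, had 25.5%, 29.8% and 40.8% against 0, 2.45% and 1.57%.

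Of 85 ribosomal protein genes, 0 were higher and 69 lower than in Late_S relative to the bulk (median log2 -0.62), but 70 were higher and 0 lower when scaled by all reads (median 0.55). Their median share was 7.20% in Early_S and 5.27% in Late_S, so it differed by less between these gates than that of the median gene. Without the members that had over 10% multimapped reads, 29 of 36 were lower. RPS3 had 4.10%, 4.35% and 3.78% against 2.58%, 3.02% and 2.56% (log2 -0.56, edgeR adjusted p = 0.00115, and 0.61 when scaled by all reads). RPL36 had 2.27% ± 0.158 against 2.47% ± 0.173 (log2 -1.29, edgeR adjusted p = 0.000133, but -0.12 and not called when scaled by all reads). Among genes with a pyrimidine start other than ribosomal proteins, 18 of 309 were lower and 17 higher (median -0.06). Of 78 respiratory chain subunits 7 were lower and 0 higher (median -0.41, but 0.75 when scaled by all reads, where 0 were lower and 56 higher). Of 25 immediate early factors 8 were lower and 3 higher (median -0.27, but 0.90 when scaled by all reads, with 0 lower and 14 higher). JUN had 89.0% ± 1.63 in Early_S and 87.3% ± 1.80 in Late_S (log2 -0.94, edgeR adjusted p = 0.000871, but 0.23 when scaled by all reads), and ZFP36L1 89.97% ± 0.472 and 85.8% ± 1.12 (log2 -0.60, edgeR adjusted p = 0.000232, but 0.57 when scaled by all reads). CDKN1A had 78.1% ± 2.57 against 47.9% ± 0.225 (log2 0.80, edgeR adjusted p = 0.000148).

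**Figure D5:**
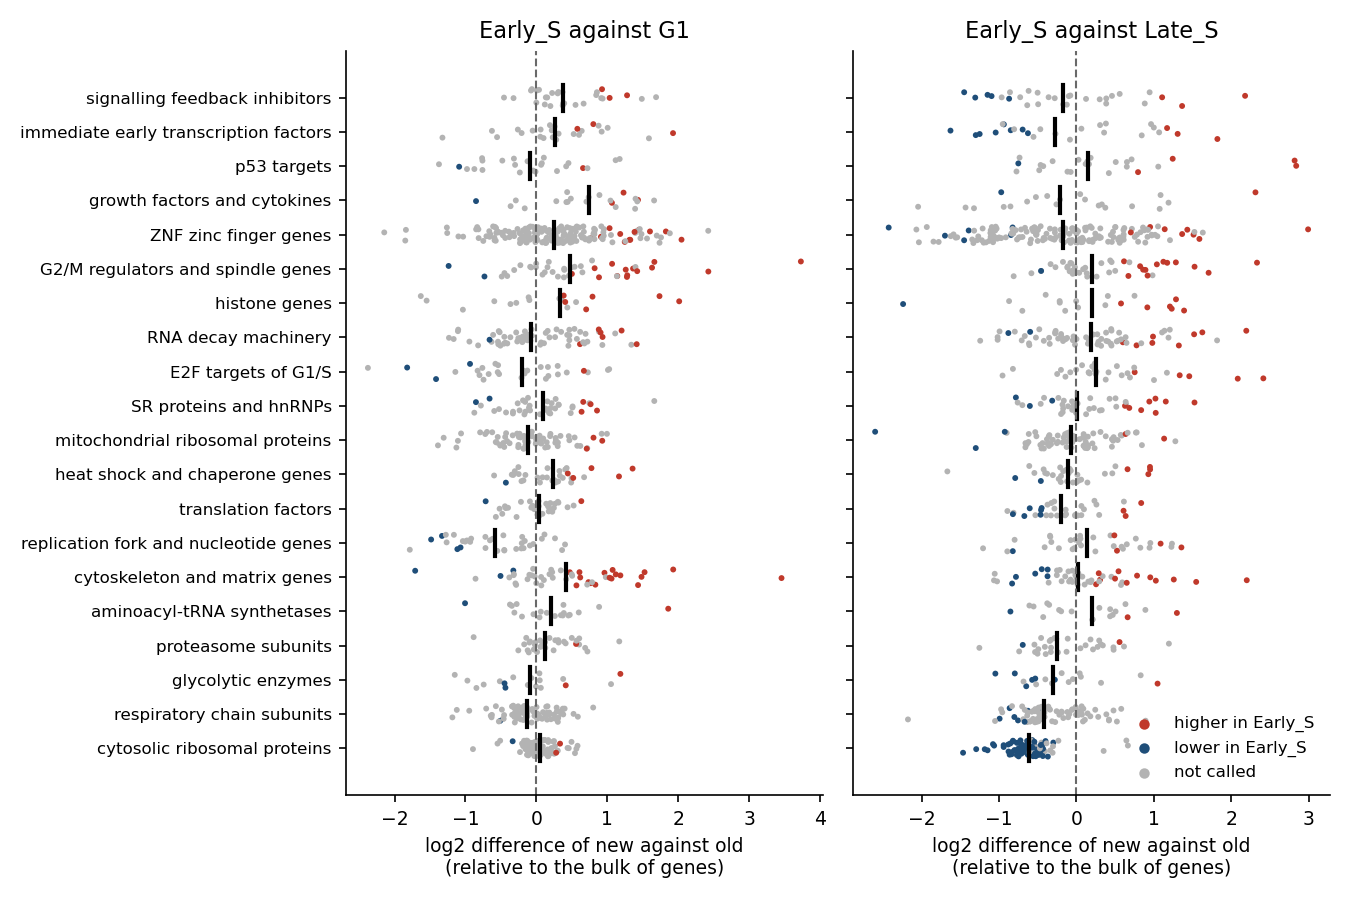
Log2 difference in the ratio of new to old RNA (horizontal axes) for genes of 20 groups (rows) in Early_S against G1 (left) and against Late_S (right), relative to the bulk of genes. Each point is a gene, red or blue where called higher or lower in Early_S (edgeR, 3 libraries per gate), and black bars are medians; ribosomal proteins lie left of 0 on the right panel (median -0.62), and move to the right of it (0.55) when scaled by all reads.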

How the data were processed

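Per the file headers, the authors counted reads, T>C reads, multimapped reads, covered T positions and converted T positions with slamdunk 0.2.4 in regions near transcript ends (hg38, Ensembl release 90). These deposited counts were summed by gene name and used as they are. How many conversions define a T>C read is not given in the sources read here, nor are aligner settings. In No_alkylation a T>C read held 0.822 to 0.836 converted T positions on average, and in Early_S 2.32 to 2.34. An average below 1 means that T>C reads and converted positions were not counted under the same filter. Genes, lists and alternatives were chosen with earlier results of these data known.

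Ratios were fitted with edgeR 4.0.16 in R 4.3.3 (glmQLFit, glmQLFTest) with 2 columns per library, T>C reads and the remaining reads, and the library as a term, and p-values were adjusted by Benjamini-Hochberg over all genes tested. The background fit used total reads without TMM and required a mean of 10 reads and a sum of 10 T>C reads per gene. DESeq2 1.42.0, other scalings, filters, measures and left-out libraries were alternatives. The SE is the size of the log2 value over the square root of its F statistic. Reads carry no molecular identifiers, so limits from a count of 0 (3 reads) cover counting error only. Wilson half-widths (95%) of single-library shares of named genes ran from 0.0884 to 9.10 percentage points. Replicates of a group differed by more than counting noise (chi-square per degree of freedom 12.1 to 23.0).

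On simulated counts, 54% of genes changed by 1 log2 unit and 99% of those changed by 2 were recovered in the comparison within Early_S (9117 genes, 3 false calls). For Early_S against G1 these were 16% and 85% (9024 genes, 7 false calls), and against No_alkylation 1% and 27% (12125 genes, 2 false calls). Whether these rates hold for the real libraries, or for calls that also need a log2 ratio of at least 1, was not tested.

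The genes named are the 15 highest and lowest by share, the 3 highest and lowest of each list, the 6 with the largest change each way between gates whose libraries did not overlap, the 5 with the most conversions without alkylation, and 14 chosen by name. Not all are described. Coordinates count from 1 and are those of the region that took most of a gene's reads. A few genes and 1 sequence that these rules select are not reported here.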

Additional observations from a re-analysis of the deposited data

Results flagged for a closer look

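Each result here was picked out because the ratio of new to old RNA differed between Early_S and a neighbouring gate by a test of the difference itself (edgeR, 3 libraries per gate, adjusted p under 0.05, relative to the bulk of genes). The floor of 100 reads applied to Early_S alone, so large values on the higher side may rest on few T>C reads in the other gate. Against G1, 516 genes were higher and 143 lower in Early_S. The largest differences in log2 among genes whose libraries did not overlap were 6.70 (MPO), 3.77 (CD82), 3.73 (KIF20A), 3.46 (TIMP1), 3.37 (SOAT2) and 3.35 (SAPCD2), and on the lower side -6.13 (CGREF1), -4.24 (NUP210), -2.96 (CYB5A), -2.63 (DNAJC19), -2.59 (UCP2) and -2.58 (STX8). The calls of SOAT2, NUP210 and STX8 were lost in some fits that left out 1 library, with an adjusted p of up to 0.116, 0.193 and 0.186. SOAT2 lost its call without Early_S replicate 1, Early_S replicate 2 or G1 replicate 1, NUP210 without any Early_S library or G1 replicate 2 or 3, and STX8 without Early_S replicate 1 or 3 or any G1 library. MPO encodes a protein of neutrophils, and of the 5 blood markers PTPRC, of all white cells, had 1 read and SPI1, of myeloid cells, 4 reads over the Early_S libraries, while CD3E and HBB were among those with 0.

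Against Late_S, 671 genes were higher and 292 lower. The largest differences in log2 were 8.81 (ALPL), 4.67 (TNC), 4.17 (SPOCD1), 4.10 (S1PR3), 3.98 (IPPK) and 3.94 (BCL2A1), and on the lower side -2.60 (MRPL23), -2.42 (ZNF92), -2.39 (HAGHL), -2.24 (HIST1H2AG), -2.16 (MOSPD3) and -2.09 (PPRC1). ALPL, alkaline phosphatase, had 0 T>C reads in all 3 Late_S libraries, so its fitted difference depends on the prior count and is no measure of size. Apart from S1PR3, IPPK and BCL2A1, the call of every gene named in this comparison here was lost in 4 or more of the 6 fits that left out an Early_S or a Late_S library, with an adjusted p of up to 0.185 (MRPL23).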

How the results depend on the processing

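The count of genes above background kept within 1.5 times of 10785 under every alternative (10181 to 10623 with 1 library left out), as did the 4725 genes called within Early_S (4358 to 4601). The T>C difference of 17.4 points was 17.2 to 17.7 with 1 library left out, 18.9 without genes over 10% multimapped reads and, measured as a conversion rate, 2.31 points. Within Early_S the higher share of calls moved from 50.5% to 59.5% without TMM. Against G1, the count of 659 was 426 to 556 with 1 library left out, lowest without G1 replicate 3 (426) and G1 replicate 1 (427), 1041 by DESeq2 and 1015 with only both gates in the fit. Against Late_S, the count of 963 was 673 to 736 with 1 library left out and 5043 when scaled by all reads. At a floor of 300 reads per library, where 6291 genes were ranked and a tail held 315, 236 of the fast and 263 of the slow genes were still in their tails. With 1 library left out the tails kept 414 to 422 fast and 333 to 349 slow genes, and the median share was 18.9% to 20.3%.

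Scaled by all reads, the log2 difference of these genes between Early_S and Late_S changed sign from below to above 0: ACTB 0.80, EEF1A1 0.72, GAPDH 0.37, IER2 0.90, JUN 0.23, RPS10 0.74, RPS3 0.61, SOX4 0.13 and ZFP36L1 0.57. Of these, IER2 was not called before (edgeR adjusted p = 0.471), and JUN and SOX4 were not called after it (0.367 and 0.751). With the No_alkylation share subtracted, 4 of the 5 genes with the most conversions without alkylation changed sign within Early_S: LIG1 -4.24, TAF6 -0.68, THOC3 -4.39 and UBXN6 -2.29, of which TAF6 did not reach the -1 of a call. The other one, SH3PXD2B, kept its sign (0.95) and lost its call. For the other values of single named genes, 36 of 468 alternatives against G1 ended a call and 5 made one, as did 92 and 6 of 491 against Late_S and 2 and 27 of 2019 within Early_S.

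The fits above did not pair libraries across groups by replicate number. Same-numbered libraries of Early_S and G1 had correlated deviations of 0.03, 0.12 and 0.05, against -0.08 to 0.05 for other numbers. Those of Early_S and Late_S had 0.00, 0.02 and 0.03, against -0.03 to 0.01 for other numbers. Whether the numbers pair libraries was not tested further. With the replicate block, 10617 genes were above background, 670 differed from G1 and 962 from Late_S. With no replicate block within Early_S, 4755 were called. Depth limits the slow tail, where counts near 0 set only upper limits.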

Other observations

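Some genes carried conversions without alkylation and were therefore left out of the ranking. Of 9117 genes, 175 had over 5% T>C reads in the No_alkylation libraries, and they held 3.06% of the T>C reads of Early_S. UBXN6, a cofactor of the p97 ATPase, had 67.7% in No_alkylation and 73.0% ± 3.48 (SD, n = 3) in Early_S. TAF6, a subunit of the general transcription factor TFIID, had 53.6% and 67.5% ± 5.01, and LIG1, the DNA ligase of the replication fork, 50.8% and 50.7% ± 4.02. THOC3, of the messenger RNA export complex, had 40.5% and 42.0% ± 3.44, with 60.4% multimapped reads, and SH3PXD2B, a podosome adaptor, 46.4% and 79.0% ± 6.74. For LIG1 and THOC3 the shares in both kinds of library lay within 1 SD of each other.

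Genes of the same protein complex spanned a wide range of labelled shares. Proteasome subunits ran from 6.13% (PSMD13) to 53.4% (PSMD12), and mitochondrial ribosomal proteins from 2.98% (MRPL23) to 64.6% (MRPL50). Cytosolic ribosomal proteins, a group taken by gene name, ran only from 2.27% (RPL36) to 31.0% (RPL7L1). These spans are descriptions, with no test of their difference.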
